A study of Arabidopsis thaliana with 6 samples.

Results

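The genes described are 10 members of the large chaperone families of *Arabidopsis thaliana*, taken by locus: *HSP101* (AT1G74310), *HSP90.1* (AT5G52640), *HSP90.2* (AT5G56030), *HSC70-1* (AT5G02500), *HSC70-2* (AT5G02490), *HSP70-4* (AT3G12580), *HSP70T-2* (AT2G32120), *BIP1* (AT5G28540), *BIP2* (AT5G42020) and *BIP3* (AT1G09080). The value table held 27981 loci, and the 10 loci were represented by 15 of its 35986 features, each of which stands for a gene model. Expression was measured on Affymetrix arrays in seeds of the wild-type ecotype Col-0 whose radicle had just emerged, with 3 arrays of seeds frozen without treatment and 3 arrays of seeds kept for 72 h in polyethylene glycol (PEG) at -2.5 MPa. Each array was made from a separate pool of seeds bulk-harvested from more than 1 plant. Before germination in constant white light at 22 °C, the seeds of both groups spent 72 h at 4 °C. The PEG seeds were then held in darkness at 20 °C, and the effects of osmotic stress, light, temperature and elapsed time therefore cannot be told apart. The p-values measure the spread between the pools.

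Molecular chaperones bind proteins that are not folded and use ATP to hold, fold or release them. HSP70 proteins bind short exposed stretches of many proteins, with J-domain proteins that deliver the client and exchange factors that reset the cycle, and HSP90 proteins act later, on clients such as kinases and receptors. HSP101 is the cytosolic member of the ClpB family, a ring that threads proteins out of aggregates and hands them to HSP70. BIP proteins are the HSP70s of the endoplasmic reticulum (ER), where they fold secreted and storage proteins and restrain the sensors of the unfolded protein response. In *Arabidopsis*, *HSP101* is needed for acquired thermotolerance, and its protein is known from maturing and dry seeds.

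The deposited values are log2 expression, with array medians of 4.81 to 4.97, and values under 4 (38.2 to 41.6 % of the features of an array) were set to a floor of 4. Across features, Pearson's r was 0.983 to 0.993 within and 0.857 to 0.892 between the groups. Chosen seed markers, namely *ICL*, *MLS*, *OLEO1*, *CRU3*, *EXPA1*, *EXPA2* and *XTH5*, all lay above the floor on all arrays (7 of 7). In untreated seeds, *OLEO1* lay close to the floor, at 4.56, 4.46 and 4.15. The oil body protein gene *OLEO1* and the storage protein gene *CRU3* rose after PEG by 5.92 and 5.10 on the log2 scale. Markers of other organs were mostly at the floor on every array, with 3 of 3 for pollen and 3 of 4 for floral organs (the exception being *PI*). Of the markers of the testa, which is part of the seed, 1 of 2 was at the floor (the exception being *TTG2*). In whole seeds, a change in the share of a cell type and a change in RNA per cell cannot be told apart.

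Of the 10 chaperone genes, *BIP1* alone passed both limits, an adjusted p of 0.01 or less and a log2 change of at least 2 in either direction, with transcript levels 4.33-fold lower after PEG. Over all features, 1.60 % were called lower and 1.15 % higher at these limits. *HSP70T-2* passed the limit on p with a small rise, so that 1 member was lower and 1 higher by p alone, against 8.24 and 7.46 % of all features. With 10 genes, these counts do not set the members apart from the array as a whole. In 4 members all PEG arrays lay below all untreated arrays and in 2 members above, while the shares over all features were 21.1 and 20.8 %. Of the 23901 features above the floor on at least 1 array, 7592 were lower and 7493 higher in this sense. The median log2 fold change of the 10 members was -0.48, compared with 0.00 over all features. Transcripts of *HSP101*, *HSP90.1* and *HSP70-4*, among those known in *Arabidopsis* as heat-inducible, had overlapping groups, and no cytosolic member was called higher. Those genes do not stand for all heat-inducible chaperones, and in *HSP70T-2* all PEG arrays lay above all untreated arrays.

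**Figure D1:**
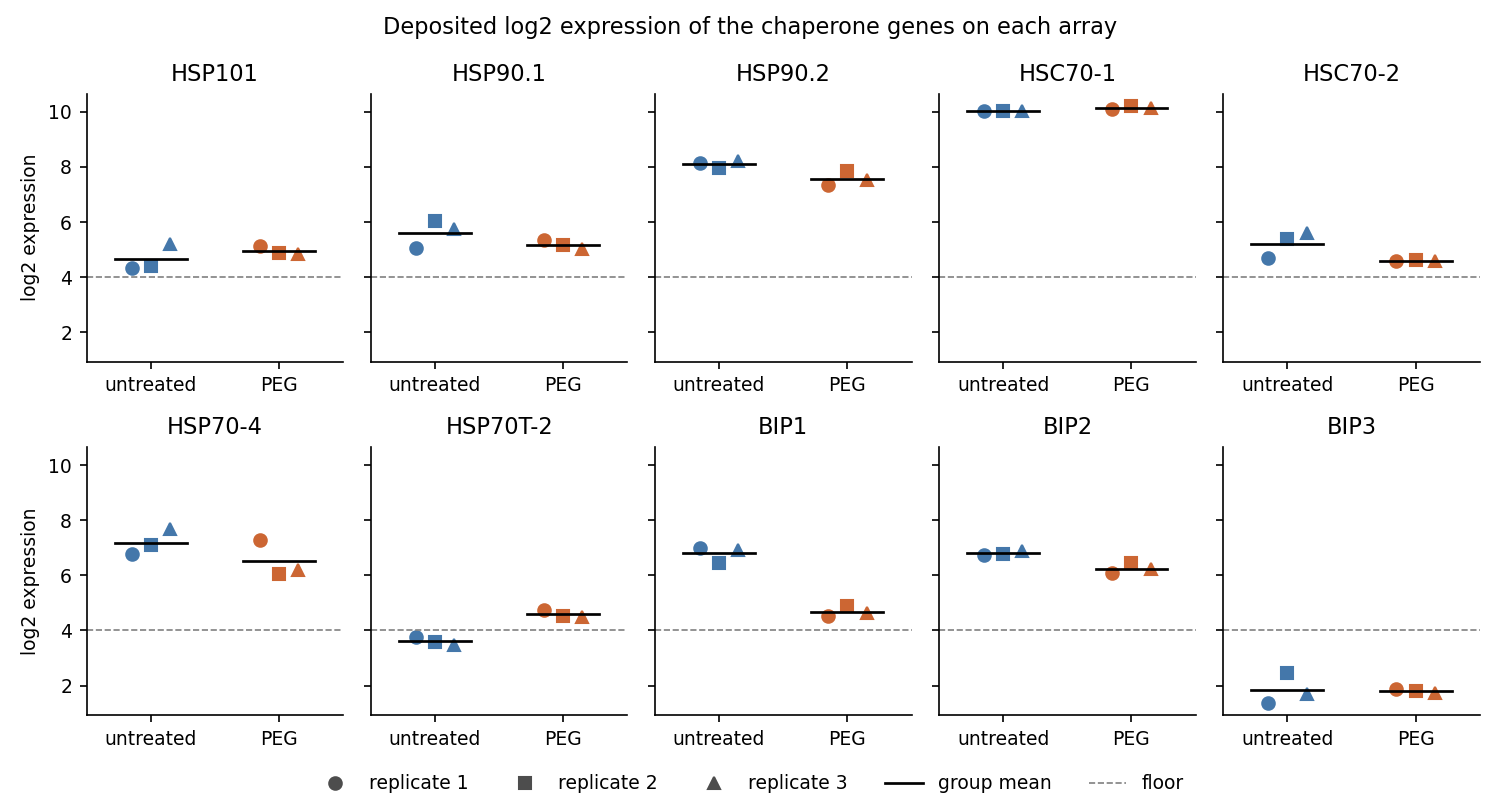
Log2 expression as deposited (y axis) of the 10 chaperone genes in untreated and PEG-treated seeds, with 1 symbol per array, a bar for the group mean of the deposited values and a dashed line at the floor of 4. The *BIP1* means lie 4.33-fold apart, the *HSC70-1* arrays all lie near 10, and *BIP3* lies under the floor on every array.

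*HSP101* encodes the cytosolic disaggregase. Its transcript level was 4.34, 4.42 and 5.20 in untreated replicates 1, 2 and 3, and 5.13, 4.86 and 4.84 after PEG. Untreated replicate 3 was the highest array of all 6, above every PEG array, and the groups overlapped. The log2 fold change was 0.29 with a 95 % interval of -0.46 to 1.03 (SE 0.28, limma adjusted p = 0.63, Benjamini-Hochberg). The interval runs from 1.37-fold lower to 2.05-fold higher, and with a floor of 5 the log2 fold change was -0.02. It was 0.56 without untreated replicate 3, but 0.13 and 0.17 without untreated replicates 1 and 2, and 0.19 without PEG replicate 1. All values lay close to the floor, and the neighbouring gene AT1G74300, which overlaps *HSP101* in the gene table, lay under the floor on all arrays (2.18 to 2.46). The 2 other ClpB genes gave no call either: *CLPB3* had 0.37 (adjusted p = 0.22) and *CLPB4* 0.03 (limma adjusted p = 1.0), and *HSA32*, whose protein acts together with HSP101 in *Arabidopsis* thermotolerance memory, had 0.78 (adjusted p = 0.17).

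*HSP90.1* encodes the heat-inducible cytosolic HSP90. Its level was 5.06, 6.03 and 5.74 in untreated seeds and 5.35, 5.17 and 5.01 after PEG. Untreated replicate 1 lay among the PEG arrays, so that the groups overlapped. Its log2 fold change was -0.43 (95 % interval -1.21 to 0.35, limma adjusted p = 0.41), which became -0.71 without untreated replicate 1 and -0.23 without untreated replicate 2. *HSP90.2*, a constitutive cytosolic HSP90, had 8.13, 7.96 and 8.20 in untreated seeds and 7.36, 7.84 and 7.51 after PEG. Here every PEG array lay below every untreated array, with the lowest value in PEG replicate 1. The log2 fold change of -0.52 (95 % interval -0.93 to -0.12) had an adjusted p of 0.068 and did not pass the limit (limma, Benjamini-Hochberg). The other *HSP90.2* feature had -0.58 (adjusted p = 0.11) and likewise no overlap between groups. The changes of *HSP90.1* and *HSP90.2* differed by 0.09 (SE 0.38, exact permutation p = 1.0), and the sign turned without untreated replicate 1 (-0.20) or PEG replicate 1 (-0.10).

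*HSC70-1* encodes the main constitutive cytosolic HSP70. It was the steadiest of the members, with 10.03, 10.03 and 10.02 in untreated seeds and 10.1, 10.22 and 10.12 after PEG. The PEG arrays were all higher, but by very little: the log2 fold change was 0.12 with a 95 % interval of 0.02 to 0.22, or 1.09-fold (limma adjusted p = 0.085). It was 0.19 after centring of the arrays and 0.08 without PEG replicate 2. The SE was 0.04 in this fit but 0.14 without the floor, where the limma adjusted p was 0.57. The narrow interval therefore depends on the setting. The other *HSC70-1* feature had 0.09 (adjusted p = 0.20). Over the features above the floor on all arrays, 0.148 % had a smaller SD among untreated arrays.

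*HSC70-2*, the neighbouring gene on the chromosome and a close relative, had 4.69, 5.37 and 5.59 in untreated seeds and 4.59, 4.63 and 4.58 after PEG. Every PEG array was lower, with untreated replicate 1 (4.69) only just above PEG replicate 2 (4.63). The log2 fold change was -0.62 (95 % interval -1.32 to 0.09, limma adjusted p = 0.18), and -0.32 with a floor of 5. The difference between 2 genes on the same array does not measure their relative abundance, since probes differ in brightness, and only its change between groups is read. For *HSC70-1* minus *HSC70-2* it went from 4.81 ± 0.48 (SD, n = 3) in untreated to 5.55 ± 0.04 (SD, n = 3) in PEG-treated seeds. The change was 0.74 (SE 0.28, exact permutation p = 0.1, two-sided, 0.2 after adjustment over 4 pairs), where 0.1 is the smallest p that 3 arrays against 3 can give. With a floor of 5 the change was 0.44. Whether probes of *HSC70-1* and *HSC70-2* respond to both transcripts was not tested.

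*HSP70-4* encodes a heat-inducible cytosolic HSP70. Its level was 6.76, 7.09 and 7.68 in untreated seeds and 7.29, 6.06 and 6.21 after PEG. PEG replicate 1 lay well above the other PEG arrays and above untreated replicates 1 and 2. Its log2 fold change was -0.66, with a wide 95 % interval of -1.87 to 0.56 (SE 0.45, limma adjusted p = 0.43). It was -1.04 without PEG replicate 1, and -0.43 and -0.40 without PEG replicate 2 and untreated replicate 3. Its SD among PEG arrays, 0.67, exceeded that of 99.5 % of the features above the floor on all arrays. Relative to *HSC70-1*, it changed by -0.78 (SE 0.50, exact permutation p = 0.3, 0.4 after adjustment), with -1.18 without PEG replicate 1 and -0.51 without PEG replicate 2.

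*HSP70T-2*, annotated as heat-shock protein 70T-2, was the member that passed the limit on p in the upward direction. All untreated arrays lay under the floor, at 3.76, 3.58 and 3.48, and all PEG arrays above it, at 4.75, 4.54 and 4.47. The groups did not overlap. Taken against the floor, the level was at least 1.5-fold higher after PEG (log2 fold change 0.59, SE 0.08, limma adjusted p = 0.0091, Benjamini-Hochberg), and without the floor the log2 fold change was 0.98. Its adjusted p lay close to the limit of 0.01, and it no longer passed after quantile normalization, after centring of the arrays, with the ordinary t statistic, with a floor of 5 or without any 1 array other than PEG replicate 1. Both of its features carry identical values and count as 1 measurement.

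**Figure D2:**
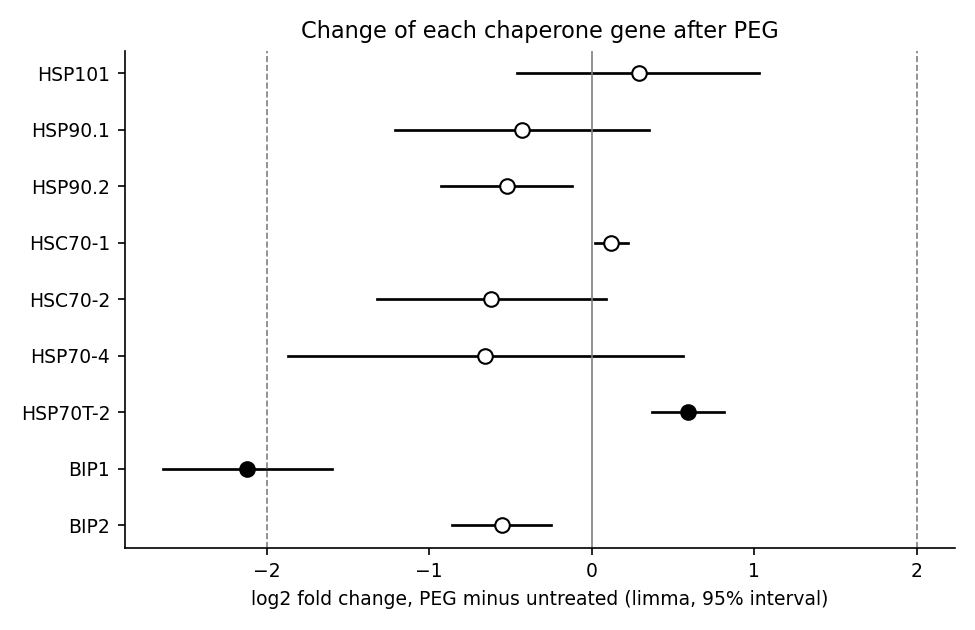
Log2 fold change of PEG-treated minus untreated seeds (x axis) for 9 members, with limma's 95 % interval as a line, and dashed lines at the fold limit of 2 in each direction. Filled symbols mark an adjusted p of 0.01 or less, reached by *BIP1* (-2.12) and *HSP70T-2* (0.59), and *BIP3* is left out because all its values lie under the floor.

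*BIP1* encodes an HSP70 of the ER lumen and was the called member. It had 7.0, 6.45 and 6.93 in untreated seeds and 4.52, 4.88 and 4.63 after PEG. The highest PEG array (4.88) lay far below the lowest untreated array (6.45). The mean fell from 6.79 ± 0.30 to 4.68 ± 0.18 (SD, n = 3 each), and limma gave a change of -2.12 (SE 0.19, 95 % interval -2.64 to -1.60, adjusted p = 0.0033, Benjamini-Hochberg). This change exceeded in size that of 97.5 % of all features. It lies near the fold limit: with a floor of 5 it was -1.79 and not called, and leaving out any 1 array but untreated replicate 2 raised the adjusted p to 0.015 to 0.020, although the log2 fold change stayed between -2.29 and -2.01. When only features above 4 on at least 3 arrays were kept, *BIP1* was called whichever array was left out. This filter is meant wherever features near the floor are said to be removed. It drops features at or under 4 on most arrays and keeps genes such as *HSP101*, whose values all lie close above 4.

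*BIP2*, whose protein is nearly identical to BIP1, had 6.74, 6.76 and 6.89 in untreated seeds and 6.07, 6.44 and 6.22 after PEG. Again every PEG array was lower, but the step was small: the log2 fold change was -0.55 (95 % interval -0.86 to -0.25, or 1.47-fold, limma adjusted p = 0.027) and did not pass the limit of 0.01. It passed, with an adjusted p of 0.0065, when features near the floor were removed before the limma fit. The other *BIP2* feature lay under the floor on 5 of 6 arrays and gave -0.04 (adjusted p = 0.63). Whether probes of *BIP1* and *BIP2* respond to both transcripts was not tested.

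The difference *BIP1* minus *BIP2* was -0.31 to 0.26 on the untreated arrays and -1.59 to -1.55 on the PEG arrays, without overlap. The change of *BIP1* exceeded that of *BIP2* by 1.56 on the log2 scale (-1.56, SE 0.16, exact permutation p = 0.1, and 0.2 after Benjamini-Hochberg adjustment over 4 pairs). The design cannot give a lower p for a single pair, and the difference kept its sign under all alternatives, tried for it (a floor of 5, no floor, quantile normalization, centring and each array left out), between -1.71 and -1.24. *BIP3*, known in *Arabidopsis* to be induced strongly by ER stress, lay far under the floor on all arrays, at 1.37 to 2.44 in untreated and 1.72 to 1.86 in PEG-treated seeds. No fold change is given for it, and the *BIP3* and *BIP2* pair was not compared.

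**Figure D3:**
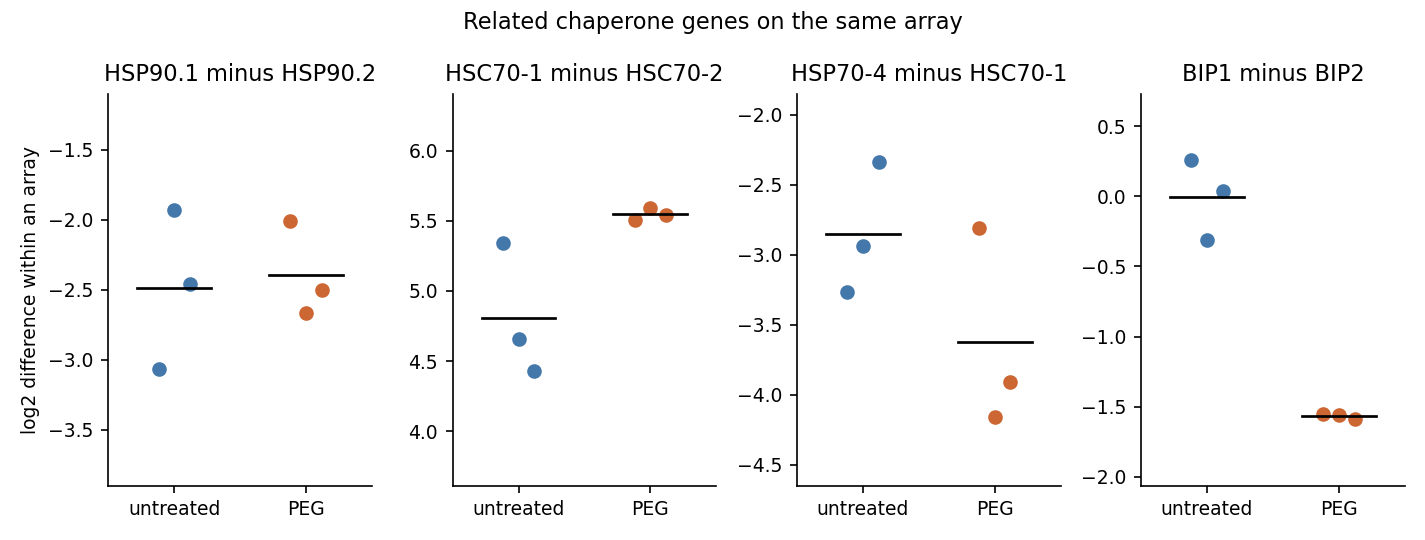
Difference in log2 expression between related genes on the same array (y axis, each panel spanning the same number of log2 units), for untreated and PEG-treated seeds, with bars at the group means. *BIP1* minus *BIP2* moved by -1.56 and *HSC70-1* minus *HSC70-2* by 0.74 with no overlap, whereas the *HSP90.1* minus *HSP90.2* values of both groups are mixed.

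The members also differed in how evenly they were expressed among untreated pools. Among the 8 members above the floor on all arrays, *HSP101*, *HSP90.1*, *HSC70-2* and *HSP70-4* had SDs of 0.47 to 0.49 in untreated seeds, larger than in 96.7 to 97.5 % of the features above the floor on all arrays, whose median SD was 0.17. In each of these 4 genes untreated replicate 1 was the lowest untreated array, which held for 36.4 % of those features, and all but *HSP90.1* were highest in untreated replicate 3. The 4 genes were picked by their spread, with the values known. Over all 8 members, untreated replicate 1 was the lowest untreated array in 5 and the highest in 2. The constitutive *HSC70-1* and *HSP90.2* and the ER gene *BIP2* did not share this spread, with SDs of 0.01, 0.12 and 0.08, while *BIP1* had an SD of 0.30, larger than in 84.1 % of the features. These ranks were not matched on expression level. Untreated means were 4.66 to 7.18 in the 4 genes of large SD, 10.03 in *HSC70-1*, 8.09 in *HSP90.2* and 6.80 in *BIP2*. After PEG, the SDs of *HSP101*, *HSP90.1* and *HSC70-2* were 0.16, 0.17 and 0.03, but that of *HSP70-4* was 0.67. The limma estimate takes 1 variance for both groups, so that a spread in either group widens the interval.

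For *HSP101*, the 5 loci most alike in pattern over the 6 arrays were AT1G80150, *CYP707A2* (AT2G29090, a cytochrome P450), AT2G47970, AT4G32120 and AT1G49740. Their root mean square difference from *HSP101*, after each gene's own mean was subtracted, was 0.1 to 0.122 on the log2 scale, compared with 0.323 for the *HSP101* values themselves. These are the nearest of 27981 loci, and over 6 arrays such likeness is a description only.

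Further genes of the same machinery were grouped by known function, in 7 groups with 60 genes. By the limit on p, 13 were lower and 3 higher, and 1 was called at both limits, *cpHSC70-2*. Over all features 8.24 % were lower and 7.46 % higher by p, and over the features above the floor on at least 1 array 12.4 and 11.2 %. Their median log2 fold change was -0.41. The counts depend on how features at the floor are treated. With only features above 4 on at least 3 arrays kept, 34 of the 60 genes passed the limit on p instead of 16.

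Of 10 other HSP70 genes, 4 fell by the limit on p and none rose, with a median of -0.68 (all features, 8.24 % lower and 7.46 % higher). Leaving out 1 array gave 0 to 2 lower, and 7 were lower and 1 higher with features near the floor removed. *cpHSC70-2* (AT5G49910), an HSP70 of the chloroplast stroma, had 9.07, 8.67 and 8.97 in untreated seeds and 5.84, 6.58 and 6.31 after PEG. The groups lay far apart, and PEG replicate 1 was the lowest array. The log2 fold change was -2.66 (SE 0.24, 95 % interval -3.30 to -2.02, limma adjusted p = 0.0031), the largest fall among the chaperone genes examined. Among the fits without 1 array it kept the call only without PEG replicate 1, and in every such fit once features near the floor were removed. The genes that follow in this family were picked with their values known. The mitochondrial *mtHSC70-1* fell by 1.37 and the plastid *cpHSC70-1* by 0.74, with limma adjusted p of 0.0044 and 0.0028. AT4G16660, counted with this family, fell by 1.18 (adjusted p = 0.0026). *HSP70B* (AT1G16030) was the only one of the 10 with every PEG array above every untreated array, from 4.25, 4.70 and 4.24 to 6.22, 5.53 and 5.89. The log2 fold change of 1.48 had a limma adjusted p of 0.014, and 0.0002 once features near the floor were removed.

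All 5 other HSP90 genes had lower values on every PEG array than on any untreated array (all features, 21.1 %), with log2 fold changes of -1.18 to -0.46. Of the 23901 features above the floor on at least 1 array, 7592 had every PEG array lower. Of the 5, *HSP90.6* (AT3G07770), which encodes a mitochondrial HSP90, passed the limit on p (all features, 8.24 % lower). The count of 1 became 3 with features near the floor removed or without the floor, 5 with the trended prior, and 0 without any 1 array other than PEG replicate 3. It went from 8.47 ± 0.05 to 7.48 ± 0.15 (SD, n = 3 each), a fall of 1.0 (limma adjusted p = 0.0029). *HSP90.7*, the HSP90 of the ER, had -0.59 (adjusted p = 0.12), and the cytosolic *HSP90.3* and *HSP90.4*, named after their values were seen, had -0.46 (adjusted p = 0.11) and -1.18 (adjusted p = 0.023). The cytosolic HSP90 genes other than *HSP90.1* are close copies of each other, and sharing of signal between their probes was not tested.

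Among 14 cytosolic co-chaperones, 2 fell and 1 rose by the limit on p, not far from the shares over all features (8.24 and 7.46 %). With features near the floor removed or without the floor 5 were lower and 1 higher, and leaving out 1 array gave 0 to 2 lower and none higher. *ROF1*, a peptidyl-prolyl isomerase that binds HSP90, fell by 0.89 (limma adjusted p = 0.0021) and *J2*, a J-domain partner of HSP70, by 0.73 (adjusted p = 0.0019). Its close relative *J3* had 0.26 (adjusted p = 0.30). The gene that rose is named after its value was seen: AT3G03773 rose by 0.61 (adjusted p = 0.0061). *HOP1* and *HOP3*, which link HSP70 to HSP90 and are also named after their values were seen, had -1.21 (adjusted p = 0.018) and -1.29 (adjusted p = 0.031), and *HOP2* had -0.27 (adjusted p = 0.34).

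**Figure D4:**
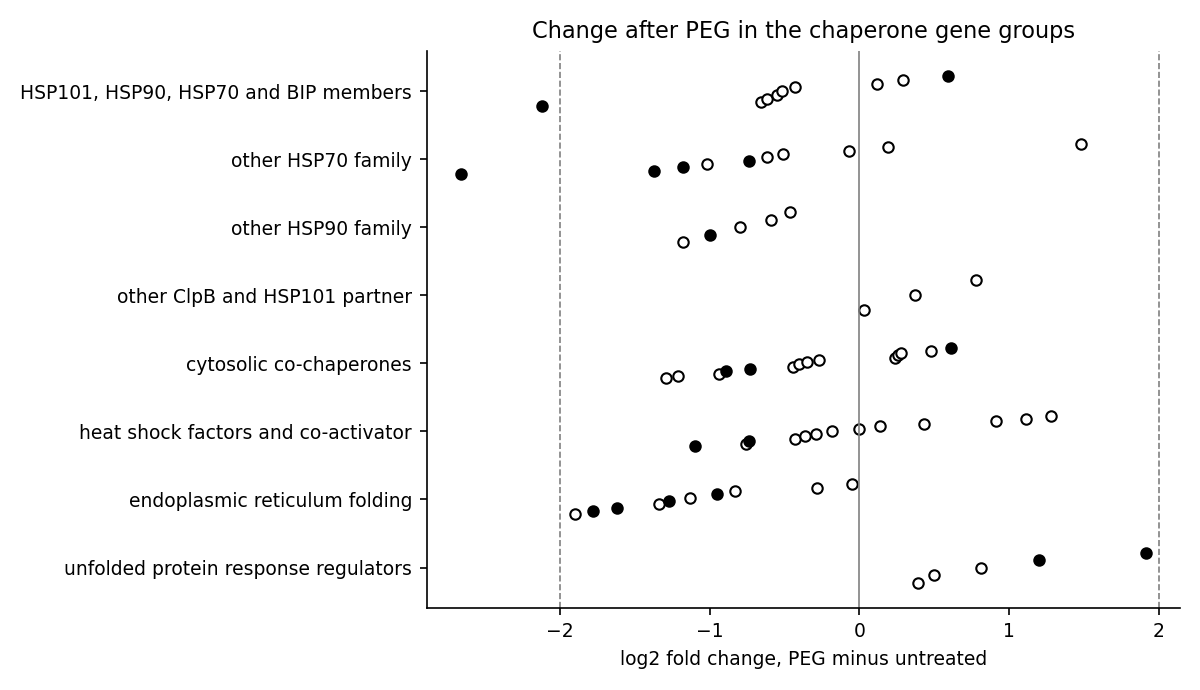
Log2 fold change of PEG-treated minus untreated seeds (x axis) for the members without *BIP3* and for 60 further genes in 7 groups by function, 1 symbol per gene, filled where limma's adjusted p was 0.01 or less. All 10 ER folding genes lie below 0 and all 5 regulators of the unfolded protein response above it, while the heat shock factors spread to both sides, and *HSFA9*, under the floor on all arrays, is drawn at 0.

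The heat shock factors regulate heat shock genes by binding their promoters. Of 13 genes, including the co-activator *MBF1C*, 2 fell by the limit on p and none rose (all features, 8.24 and 7.46 %). These counts depend on the setting: 3 were lower and 3 higher with features near the floor removed or without the floor, 1 was lower after centring, quantile normalization or with a floor of 5, and none with the ordinary t statistic. Leaving out 1 array gave 0 to 1 lower and 0 to 1 higher. *HSFB2A* fell from 5.24 ± 0.04 to 4.14 ± 0.24 (SD, n = 3 each), by 1.10 (limma adjusted p = 0.0068), with 2 of the 3 PEG arrays under the floor. *HSFA3* reached the floor on all PEG arrays and was at least 1.66-fold lower (log2 fold change -0.74, adjusted p = 0.0083), and without the floor it had -2.13. With features near the floor removed, *HSFA3* was kept through its untreated arrays alone, so its passing there adds no support. *HSFA2*, a heat-induced factor, had -0.36 (adjusted p = 0.026), with untreated levels of 4.29 to 4.53 and PEG levels of 3.43, 3.66 and 4.03. Only 1 PEG array lay above the floor, and without the floor *HSFA2* had -0.67 (limma adjusted p = 0.021). The other *HSFA2* feature lay under the floor on all arrays. *HSFA9*, a factor of maturing seeds, lay under the floor on all arrays. The constitutive factors *HSFA1A*, *HSFA1B* and *HSFA1E*, named after their values were seen, had 0.91, 1.11 and 1.28, with limma adjusted p of 0.018, 0.014 and 0.012 (0.00091, 0.00039 and 0.00023 with features near the floor removed), and the other *HSFA1B* feature had 0.99 (adjusted p = 0.00091). All 3 had higher values on every PEG array, whereas *HSFA1D* had -0.29 (adjusted p = 0.59).

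Besides *BIP1* and *BIP2*, 10 genes of protein folding in the ER were examined. All had log2 fold changes below 0, 8 had no overlap between groups, and 4 fell by the limit on p, with a median of -1.20. Over all features, 21.1 % had every PEG array lower and 8.24 % were lower by p. Of the 23901 features above the floor on at least 1 array, 7592 had every PEG array lower and 12.4 % were lower by p. None reached the fold limit. *CRT1b* (AT1G09210), a calreticulin that folds glycoproteins, had 9.54, 9.30 and 9.55 in untreated seeds and 7.24, 7.73 and 8.08 after PEG. The groups were well separated, and the log2 fold change was -1.78 (SE 0.25, limma adjusted p = 0.0093). *SDF2*, an ER protein that works with ERdj3 and BIP, had 8.64, 8.71 and 8.84 in untreated seeds and 6.94, 7.13 and 7.25 after PEG. Its arrays lay close together within each group, and it fell by 1.62 (SE 0.10, limma adjusted p = 0.0014). The remaining genes were picked with their values known: AT5G07340 fell by 1.27 and the protein disulphide isomerase gene *PDIL1-2* by 0.95, with limma adjusted p of 0.0043 and 0.0031. *ERDJ3B*, the J-domain partner of BIP, had the largest difference (-1.90) but spread from 6.38 to 7.51 among PEG arrays and missed the limit (adjusted p = 0.018). *CNX1* (-1.13, adjusted p = 0.024) and *ERDJ3A* (-0.83, adjusted p = 0.15) missed it as well, and so did *CRT1a* (-1.34, adjusted p = 0.039), of which the other feature passed (-1.30, adjusted p = 0.0084). *PDIL1-1* (-0.05, 95 % interval -0.43 to 0.32) and *CRT3* (-0.28, 95 % interval -0.72 to 0.16) had overlapping groups. The count of 4 was 7 when features near the floor were removed, 8 with the trended prior, and 0 to 3 when 1 array was left out with these features kept, the lowest without PEG replicate 2.

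Within the PEG group, replicate 1 was the lowest array in 9 of the 10 ER folding genes and in both *BIP1* and *BIP2*. Over the features above the floor on all arrays, replicate 1 was the lowest PEG array in 41.2 %. This comparison of arrays was made after the values were seen, and no label gives a batch that could be set beside it.

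The regulators of the unfolded protein response, which act when folding in the ER is overtaxed, had log2 fold changes above 0 in all 5 cases, and 2 of them rose by the limit on p (all features, 7.46 % higher). The count was 4 with features near the floor removed or with the trended prior, and 1 to 2 with 1 array left out. *IRE1A*, a membrane sensor that splices the *bZIP60* transcript, had 4.95, 4.77 and 4.79 in untreated seeds and 6.93, 6.73 and 6.60 after PEG. The groups were well separated, and *IRE1A* rose by 1.91 (SE 0.11, limma adjusted p = 0.0011), or 3.77-fold, just under the fold limit. It was the only gene of the 60 that passed the limit on p in every fit with 1 array left out. *bZIP17*, a membrane-bound transcription factor, went from 6.07, 6.20 and 5.98 to 7.35, 7.37 and 7.14, a rise of 1.20 (SE 0.09, adjusted p = 0.0022). *bZIP60* had 0.50 (adjusted p = 0.023) and *bZIP28* had 0.81 (adjusted p = 0.053), each with every PEG array above every untreated array. *IRE1B* had 0.39 (adjusted p = 0.37) with overlapping groups. The arrays measure transcript level and not splicing or cleavage of these factors. *BIP3*, a known target of these factors in *Arabidopsis*, stayed under the floor, as given above.

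**Figure D5:**
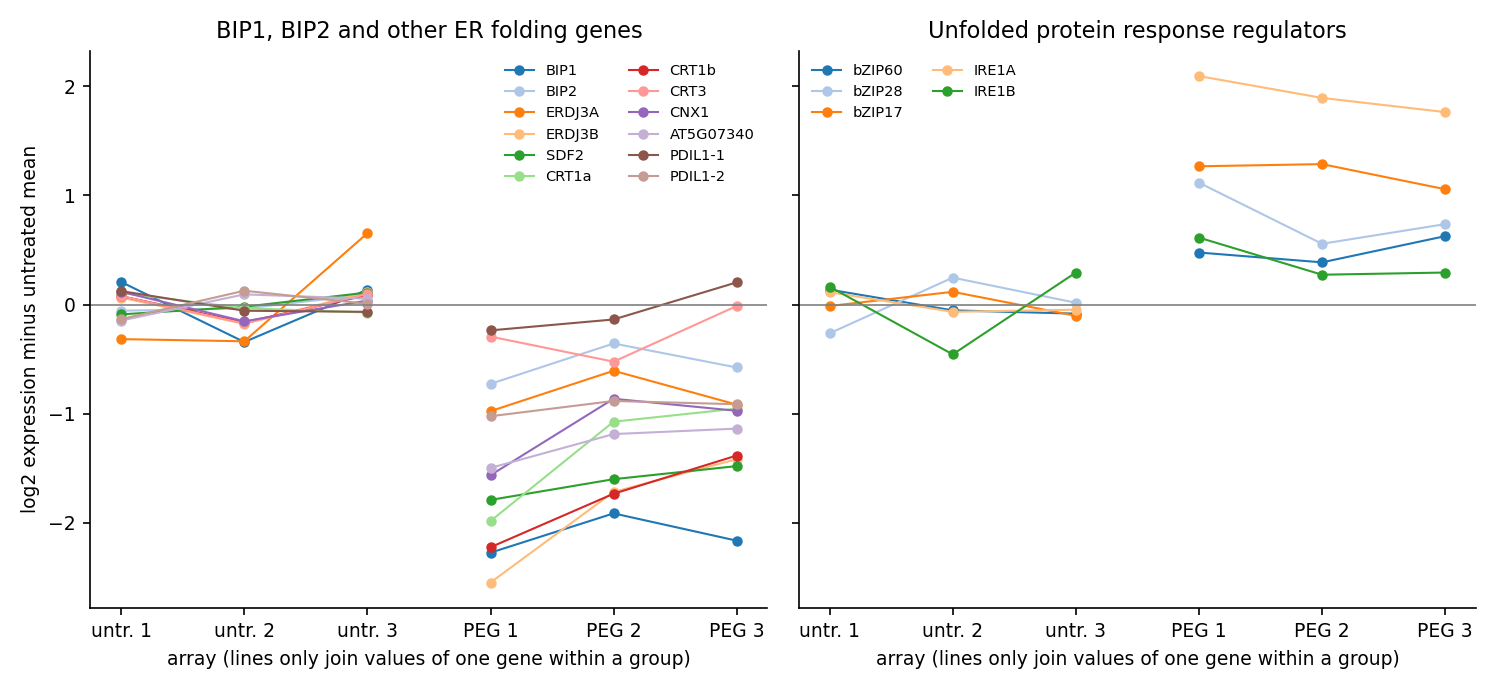
Log2 expression on each array minus the untreated mean of the gene (y axis), for *BIP1*, *BIP2* and 10 other ER folding genes on the left and 5 regulators of the unfolded protein response on the right. On the PEG arrays the folding genes lie mostly below 0, lowest in replicate 1 for 9 of the 10, and the regulators lie above 0.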

How the data were processed

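The authors deposited log2 expression values, normalized by RMA per the labels, as 1 value per gene model for 6 arrays. The probe definition and genome build of these arrays are not given in the sources used here. All columns belonged to the 6 arrays, which were grouped by their labels. Log2 values below 4 were replaced by 4, without further scaling. PEG and untreated arrays were then contrasted in limma 3.58.1 (R 4.3.3, lmFit and eBayes, no covariate) over all 35986 features, and p-values were adjusted by Benjamini-Hochberg. The limits (adjusted p of 0.01 or less, absolute log2 fold change of 2 or more) and the floor follow the methods given in the study for its arrays of seeds treated with abscisic acid, where adjustment of p is not mentioned. Where a locus had several features, that with the highest mean stands for it.

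The members, functional groups and limits were chosen with earlier results of these data known. Named in each group were the genes called or, with none called, the 2 largest changes past the limit on p, besides *HSFA2*, *HSFA9*, *bZIP60* and *bZIP28*. Related members were compared by the exact permutation test of within-array differences (scipy 1.17.1), planned for 5 pairs and made for 4. On simulated data with 200 features shifted by 2.5 among 35986, the fit recovered 146 (73.0 %) and called no other. The shifted features were drawn from those with untreated means well above the floor. The share recovered therefore does not apply to genes near the floor, such as *HSP101*, *HSP70T-2* and *BIP3*. *HSP90.1*, *HSC70-2*, *BIP1* and *BIP2* also had lower untreated means than the features drawn. Alternatives were other floors, limits, scalings, priors, features and filters, the replicate block, and each array left out, the last also with features kept only if above 4 on at least 3 arrays, a combination chosen after the data were seen. The table of TAIR10.1 genes, used for names and neighbours, matched 97.4 % of the loci, and genes for which it gives no symbol are printed by locus. The number of arrays limits the precision.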

Additional observations from a re-analysis of the deposited data

How the results depend on the processing

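Over all features, 990 were called, and this count became 3675 with a fold limit of 1, 1684 without the floor, 658 with a floor of 5 and 25 with the replicate block. Among the members, 1 was called, and none with a floor of 5 or with the block, where *BIP1* kept its log2 fold change of -2.12 at a limma adjusted p of 0.055. The higher and lower calls, 413 and 577, became 533 and 1151 without the floor and 332 and 326 with a floor of 5. Leaving out 1 array gave 589 to 736 called features (987 to 1130 with features near the floor removed, a combination chosen after seeing the data), 0 to 1 called members, and 0 to 1 members past the limit on p (1 to 4 with that removal). By the limit on p alone, 2 members passed, which became 1 after centring, after quantile normalization, with a floor of 5 or with the ordinary t statistic, 0 with the block, 3 with features near the floor removed and 5 with a trended and robust prior. *HSP70T-2*, among those 3, was kept by that removal only through its PEG arrays, so its passing there adds no support. Of the 60 further genes, 1 was called, against 9 with a fold limit of 1, 2 without the floor, 0 with the block, 0 to 1 with 1 array left out, and 1 to 2 with features near the floor removed as well. By p alone, 16 of them passed, against 32 at an unadjusted p of 0.01, 35 at an adjusted p of 0.05, 34 with features near the floor removed, 30 without the floor, 39 with the trended prior, 0 with the block (also 0 in each of the 7 groups), 1 to 9 with 1 array left out, and 29, 30, 31 or 32 with 1 array left out and features near the floor removed. *HSP101* had -0.02 with a floor of 5, where 4 of its 6 values are at the floor. *HSP90.1* minus *HSP90.2* was -0.20 without untreated replicate 1 and -0.10 without PEG replicate 1, and 0.37 at the highest, without untreated replicate 2. The replicate numbers are not stated to pair the pools, and deviations of same-numbered arrays had correlations of -0.10, -0.02 and 0.04, so the numbers were not taken to pair the arrays. Levels near the floor of 4, as those of *HSP101*, *HSP70T-2* and *BIP3*, limit what a change in them can show.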
